A study of Rattus norvegicus with 241 samples.

Results

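The genes described here are the 4 receptors for the main systemic hormones of the mammary gland: ESR1 (estrogen receptor alpha), PGR (the progesterone receptor), PRLR (the prolactin receptor) and GHR (the growth hormone receptor). They were chosen by name, by matching the symbols without regard to case, and all 4 were present among the 16820 genes of the bulk RNA-seq tables and in the single-cell tables. The rule uses no measured value, but it was set with earlier results of these data known.

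ESR1 and PGR are nuclear receptors that act as transcription factors once estradiol or progesterone is bound. PRLR and GHR are related cell surface receptors of the cytokine receptor family that signal through the kinase JAK2 and the transcription factors STAT5A and STAT5B. In the mammary gland, hormone-sensing cells are a subset of the luminal epithelium that carries ESR1 and PGR and signals to its neighbours through secreted factors such as amphiregulin and WNT4, while growth hormone is known to act largely through IGF1 made in the stroma.

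The study asked what a short course of a TGFβ receptor inhibitor (TGFBRi, LY2157299) does to the rat mammary gland. The rats were of the inbred ACI strain or the outbred Sprague-Dawley (SD) strain, with no transgene named in the labels, and were gavaged 2 times a day with vehicle or with 75 mg/kg of the compound. Dosing lasted 10 days, except in the estradiol (E2) experiment, where it lasted 21 days. Young virgin ACI rats started at 35 days of age and were collected at day 0, 7 or 14 after the last dose (18 rats, 3 per treatment and day), and young virgin SD rats started at 24 days and were collected at day 0 (8 rats, 4 per treatment). Adult ACI rats, virgin or parous, started at 18 to 24 weeks and were collected at day 0 (16 rats, 4 per parity and treatment). In the carcinogen experiment, virgin SD rats started at 21 days, were then injected with 50 mg/kg NMU (N-nitroso-N-methylurea, a mammary carcinogen) and were collected at day 87, with glands from 9 rats and tumors from 6. The 3 vehicle rats of that experiment all bore tumors. In the E2 experiment, virgin ACI rats started at 38 days and then carried an implant with 37 mg of estradiol or an empty one (17 rats). By the study's methods these rats were collected at the end of the tumor experiment, months after dosing had stopped. Every E2-implanted vehicle rat bore tumors, so E2 and tumor status cannot be told apart in the vehicle rats, while among TGFBRi rats tumor-free E2 rats were set against rats without E2.

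Bulk RNA-seq was run on cells sorted by CD24, CD29, CD31 and CD45 as luminal, as basal or as CD45+ leukocytes, and from tumors as EPCAM+ or CD45+ cells, in 202 samples. Single-cell RNA-seq at day 0 covered sorted luminal and basal cells of 6 young ACI rats (16762 cells), sorted luminal and basal cells of 9 young SD rats (39766 cells) and whole glands of 9 young SD rats (103524 cells). Each sorted bulk sample is a mixture, so fewer cells of a type and less RNA per cell cannot be told apart. Bulk depth ran from 4194912 to 52314784 reads per sample, and the median UMI count per cell of a library ran from 4251 to 15941 for ACI sorted, 4366 to 14448 for SD sorted and 2820 to 3885 for whole-gland libraries. The sorted fractions carried their markers (the sum of KRT8, KRT18, KRT19, EPCAM and CLDN4 was 27013 to 28917 RPM, the usual scaling of reads to the total on genes in a library, in day 0 vehicle luminal cells of ACI rats and 3397 to 4264 in their basal cells), but basal and CD45+ samples also carried fibroblast transcripts in amounts that differed between groups, which are given beside the results they touch. In the labels of 1 young ACI rat, a vehicle rat at day 7, the free-text description named it as treated while the treatment field and the title named it as control. It was kept as vehicle, and where leaving it out ended a call named here, the value without it is given. Of the cell barcodes, 35 of 16727 (ACI sorted), 216 of 39550 (SD sorted) and 6127 of 97157 (whole gland) occurred in more than 1 library.

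The sequence before each gene's start is shown because the factors of the pathways compared here (SMAD proteins for TGFβ, STAT5 for prolactin and growth hormone) are known to bind short motifs. The 250 bases before each annotated start are from RefSeq on the GRCr8 assembly, whereas the authors' reads were aligned to rn6, so these positions belong to GRCr8 only. Prlr has 2 starts in the table. Capitals mark a match to 1 of the 5 motifs searched on both strands: GGTCA (an estrogen response element half-site), CAGAC (the SMAD box, GTCTG on the other strand), TGTTTAC (a forkhead motif), TTCNNNGAA (STAT5) and GTCTAGAC (a palindromic Smad-binding element).
Esr1 (chr1:43641845-43642094, plus strand): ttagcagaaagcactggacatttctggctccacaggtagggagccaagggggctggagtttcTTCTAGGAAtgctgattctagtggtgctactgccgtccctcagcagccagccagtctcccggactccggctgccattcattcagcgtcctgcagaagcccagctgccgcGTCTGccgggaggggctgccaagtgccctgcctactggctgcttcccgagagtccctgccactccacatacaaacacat
Pgr (chr8:14354148-14354397, plus strand): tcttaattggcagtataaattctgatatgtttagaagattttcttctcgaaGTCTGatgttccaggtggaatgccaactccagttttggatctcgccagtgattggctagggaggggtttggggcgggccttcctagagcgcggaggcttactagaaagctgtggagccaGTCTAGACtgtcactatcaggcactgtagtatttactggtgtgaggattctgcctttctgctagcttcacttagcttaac
Prlr, start 1 (chr2:60861515-60861764, plus strand): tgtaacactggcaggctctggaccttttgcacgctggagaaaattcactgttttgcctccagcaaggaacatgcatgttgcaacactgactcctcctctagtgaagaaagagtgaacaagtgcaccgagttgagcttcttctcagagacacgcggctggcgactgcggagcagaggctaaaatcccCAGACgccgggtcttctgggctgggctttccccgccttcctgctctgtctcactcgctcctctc
Prlr, start 2 (chr2:60909409-60909658, plus strand): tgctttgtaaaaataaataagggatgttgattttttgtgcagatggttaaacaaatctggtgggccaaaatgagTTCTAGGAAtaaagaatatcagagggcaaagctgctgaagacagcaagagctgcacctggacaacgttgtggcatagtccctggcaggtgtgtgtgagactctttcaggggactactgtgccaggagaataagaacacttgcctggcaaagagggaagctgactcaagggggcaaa
Ghr (chr2:54432076-54432325, minus strand): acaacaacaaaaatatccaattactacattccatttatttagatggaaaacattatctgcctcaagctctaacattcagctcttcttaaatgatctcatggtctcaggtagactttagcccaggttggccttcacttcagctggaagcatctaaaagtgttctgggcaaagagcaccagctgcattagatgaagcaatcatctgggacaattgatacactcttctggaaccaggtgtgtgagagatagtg

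The GC content of these windows was 59.6% for Esr1, 46.8% for Pgr, 55.2% and 45.6% for the first and second Prlr starts and 40.8% for Ghr. The SMAD box stood 79 bases before the start of Esr1, 199 before that of Pgr and 64 before the first start of Prlr, and 42.93% of 33469 windows of the same length over all genes held it. The STAT5 motif stood 188 bases before the start of Esr1 and 176 before the second start of Prlr, in the same letters both times, and 7.667% of all windows held it. Neither GGTCA (35.42% of all windows) nor TGTTTAC (3.215%) occurred in the 5 windows, and the Ghr window held none of the 5 motifs. GTCTAGAC, 80 bases before the Pgr start, was added to the search after it had been seen in that sequence, so its share of 0.1733% of all windows says nothing about how unusual the match is. A match is a run of letters, not a measured binding site.

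The receptors were spread differently over the sorted fractions. Over all bulk samples, with the reads of the 4 parts of 1 rat summed, PRLR ran from 4.11 to 222.2 RPM in the 68 luminal samples (median 51.7), with medians of 2.18 in 51 basal and 2.52 in 71 CD45+ samples. PGR had a median of 24.9 RPM in luminal (1.02 to 168.4), 4.28 in basal and 1.52 in CD45+ samples. ESR1 had a median of 7.39 RPM in luminal samples (0 to 42.2), 1.12 in basal and 1.11 in CD45+ samples. It had no read in 2 luminal, 9 basal and 17 CD45+ samples. GHR followed another order: the median was 64.3 RPM in basal samples (36.5 to 107.4), 18.5 in luminal samples (2.65 to 49.5) and 4.81 in CD45+ samples (0 to 50.04). The CD45+ level of GHR differed between experiments. In glands of NMU-injected vehicle rats its median was 42.05 RPM in CD45+ cells, above the 12.8 RPM of their luminal cells. In vehicle rats without E2 of the E2 experiment it was 0.353 RPM in CD45+ cells. In EPCAM+ tumor cells the medians were 66.9 RPM for GHR, 28.6 for PRLR, 7.45 for PGR and 2.67 for ESR1. RPM does not correct for transcript length, so these levels rank samples for a gene and not genes against each other.

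**Figure D1:**
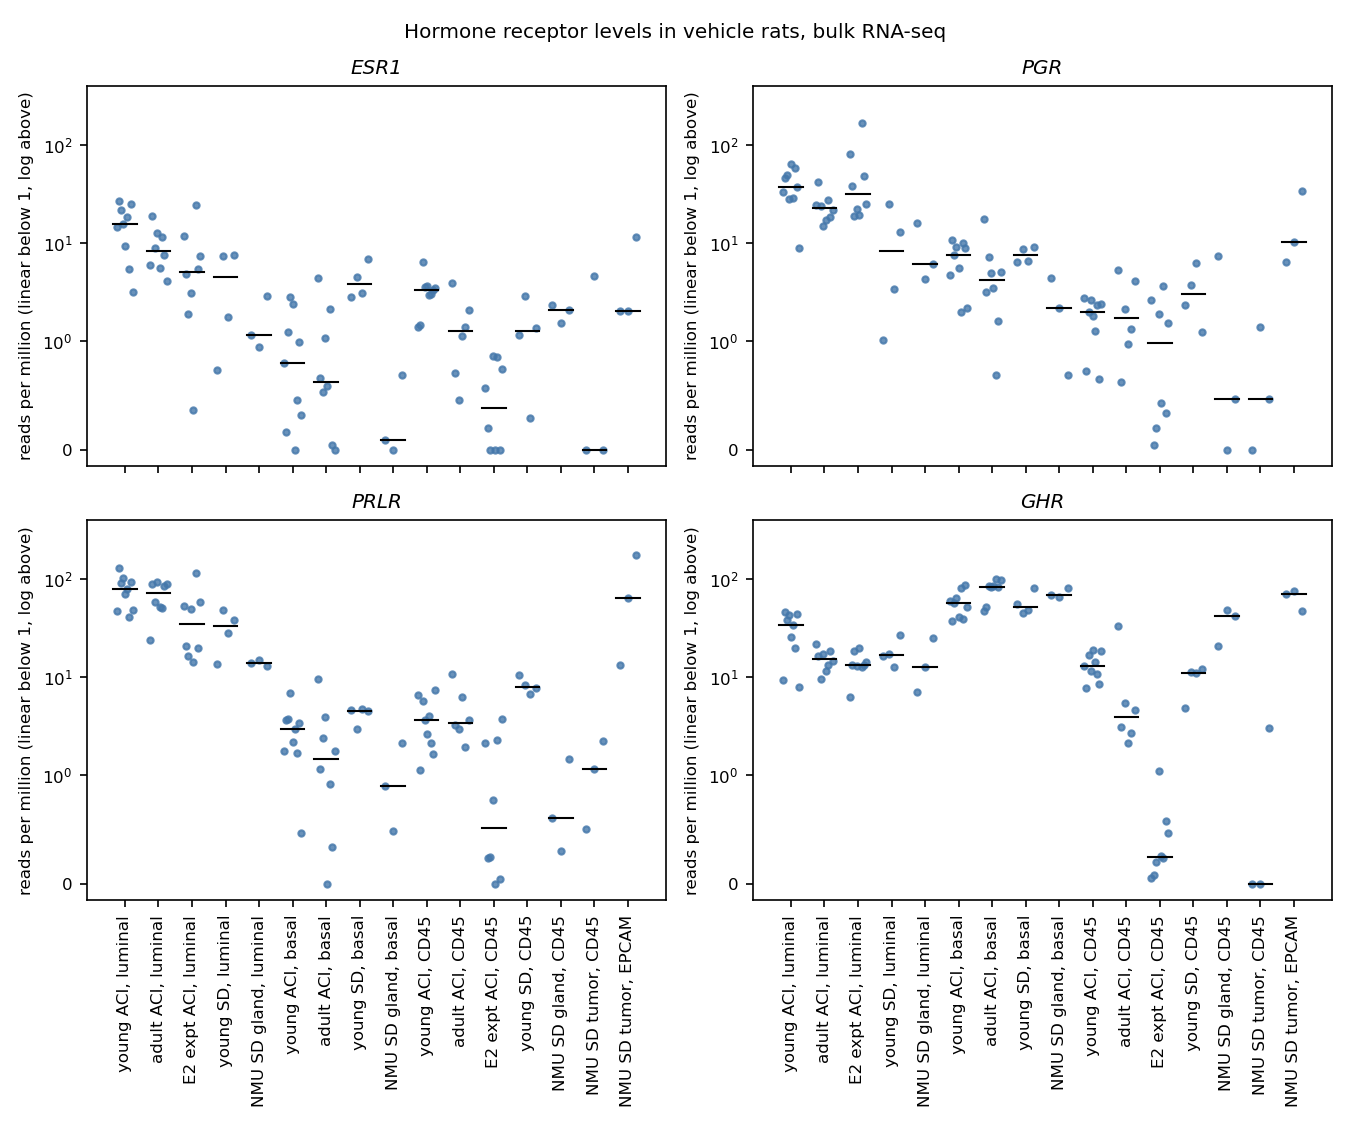
Levels in RPM (linear below 1, log above) of the 4 receptor genes in vehicle rats of each bulk experiment and fraction. Points are rats and black lines are medians. ESR1, PGR and PRLR sit highest in luminal samples in most experiments and, in tumors, in EPCAM+ cells, while GHR sits highest in basal and EPCAM+ tumor samples.

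Ordered by the median of each of the 59 bulk groups, ESR1, PGR and PRLR were headed by luminal groups and GHR by basal ones. The highest group medians were 29.7 RPM for ESR1 (young ACI luminal, TGFBRi, day 0), 97.5 for PGR and 120.5 for PRLR (both luminal of the E2 experiment, TGFBRi without E2), and 92.3 for GHR (adult ACI basal, parous, vehicle). Nearly all neighbours in these orders overlapped in range (58 of 58 steps for ESR1 and PGR, 56 of 58 for PRLR and GHR), so no finer ranking of groups can be read from them.

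The 2 strains can be set side by side only as levels, since their tables were normalized apart. In day 0 vehicle luminal cells, ESR1 was 15.6, 21.5 and 26.7 RPM in the 3 ACI rats and 0.74, 1.75, 7.30 and 7.59 RPM in the 4 SD rats. PRLR was 90.6, 102.4 and 129.98 RPM in ACI and 13.7, 28.4, 38.5 and 48.8 RPM in SD, and PGR 27.9, 46.5 and 49.3 RPM in ACI and 1.02, 3.35, 12.99 and 24.8 RPM in SD. All 3 receptors stood higher in every ACI rat than in every SD rat, and GHR did so as well (38.0, 43.5 and 46.8 against 12.6, 16.6, 17.1 and 26.9 RPM). How many of all genes separate the 2 strains in this way was not counted. Age at start, table and strain differ together in this pair, so they cannot be told apart.

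The clearest difference within the bulk data was between the basal and luminal cells of the same vehicle rats. Of 20 tests (4 genes in 5 groups of vehicle rats), 17 passed an adjusted p of 0.05 by limma, beside 24.2% of all genes over the same 5 comparisons. PRLR was lower in basal cells in all 5 groups, PGR and ESR1 in 4, and GHR was higher in basal cells in 4. In the text, "normalized count" is a read count divided by the library's size factor, and fold changes are on the log2(normalized count + 1) scale with SE.

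PRLR was lower in basal cells in each of the 5 groups. In young ACI rats at day 0 it stood at 1397, 1604 and 2045 normalized counts in luminal cells and 56.6, 57.1 and 99.3 in basal cells, with no overlap (log2 fold change, basal against luminal, -4.58 ± 0.42, adjusted p = 1.8e-09, where 20.5% of all genes passed). At day 7 it was 574.1, 1030 and 1398 against 9.36, 22.8 and 31.6 (-5.55 ± 0.42, 14.7% of all genes passing), and at day 14 it was 726.6, 1199 and 1420 against 27.3, 56.02 and 74.9 (-4.44 ± 0.42, 19.3%). In young SD rats the luminal values were 276.2, 522.6, 563.3 and 644.7 and the basal ones 33, 51.1, 51.4 and 51.6 (-3.35 ± 0.66, adjusted p = 0.00013, 40.9%). In NMU-injected SD rats they were 240.3, 384.3 and 481.1 against 7.83, 13.7 and 32.9 (-4.44 ± 0.76, adjusted p = 4.5e-05, 27.3%). Every luminal sample was above every basal sample in all 5 groups. Without the rat with contradicting labels the day 7 difference was -4.79.

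ESR1 was 243.7, 331.6 and 420.7 normalized counts in luminal and 2.57, 18.8 and 40.4 in basal cells of day 0 ACI rats (-4.51 ± 0.91, adjusted p = 0.00042). The same difference was -3.20 ± 0.91 at day 7 (luminal 90.4, 136.8 and 177.2, basal 6.24, 10.3 and 34.2) and -5.36 ± 0.91 at day 14 (luminal 96.7, 278.1 and 377.4, basal 0, 7.43 and 16.5), again without overlap. The day 7 call was lost without the rat with contradicting labels (adjusted p = 0.1004) and without rat LD2L (0.1428). In NMU-injected rats ESR1 was 30.2, 32.02 and 53.6 in luminal and 0, 1.37 and 10.7 in basal cells (-3.66 ± 1.35, adjusted p = 0.041). This call was lost when the rat was a block (adjusted p = 0.0711), by edgeR (0.144), by DESeq2 (0.057) and without rat C2N (0.145) or C2R (0.2463).

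In young SD rats at day 0, ESR1 did not pass. The luminal values were 14.8, 34.7, 96.4 and 103.04 and the basal ones 31.2, 33.5, 49.8 and 78.4 normalized counts, so the groups overlapped, and the interval of the difference was wide (-0.09, 95% interval -2.47 to 2.29). PGR overlapped in these rats too, with 20.6, 66.6, 176.4 and 327.4 in luminal and 70.1, 71.9, 96.3 and 102.8 in basal cells (-0.17, interval -1.46 to 1.12). The basal samples of these SD rats were rich in fibroblast transcripts: the sum of COL1A1, COL1A2, COL3A1, DCN, LUM, PDGFRA and DPT was 34491 to 53523 RPM in them and 260 to 1461 RPM in the luminal samples, with COL1A2 at 0 throughout, while in day 0 ACI basal samples it was 3479 to 8925 RPM. The part of these transcripts in the result was not tested.

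PGR was lower in basal cells in the other 4 groups. At day 0 in ACI rats it was 437.7, 730.9 and 760.2 in luminal and 115.7, 130.5 and 168.9 in basal cells (-2.18 ± 0.57, adjusted p = 0.0056, and 0.0803 without rat LD3R). The difference was -2.95 ± 0.57 at day 7 (-3.14 without the rat with contradicting labels), -2.58 ± 0.57 at day 14 and -2.64 ± 0.73 in NMU-injected rats, where luminal values were 113.2, 135.9 and 444.3 and basal ones 10.7, 35.3 and 67.2. No group overlapped.

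GHR ran the other way. In young ACI rats it was 603.2, 769.5 and 1032 normalized counts in basal and 115.1, 226.9 and 376.7 in luminal cells at day 7 (1.86 ± 0.37, adjusted p = 0.00047, and 1.70 with an adjusted p of 0.0131 without the rat with contradicting labels), and 632.5, 1456 and 2071 against 349.6, 517.7 and 678.4 at day 14 (1.32 ± 0.37, adjusted p = 0.011), where the groups overlapped. Basal cells were also higher in SD rats at day 0 (507.2, 525.2, 620.5 and 920.5 against 225.6, 249.8, 334.5 and 365.7; 1.11 ± 0.29, adjusted p = 0.0021) and in NMU-injected rats (1054, 1063 and 1267 against 196.1, 409.9 and 461.5; 1.75 ± 0.33, adjusted p = 0.00015). In the day 0 SD rats the fibroblast marker sum given above was higher in basal than in luminal samples too. Its part in the GHR result was not tested. At day 0 in ACI rats GHR did not pass, with 578.6, 883.5 and 925.3 in basal and 586.8, 681.4 and 736.4 in luminal cells (0.23, interval -0.54 to 0.99). Fitted on these 2 groups alone the day 7 and day 14 calls were lost (adjusted p = 0.0676 and 0.0999), and the day 14 call also without rat LD11L (0.175).

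**Figure D2:**
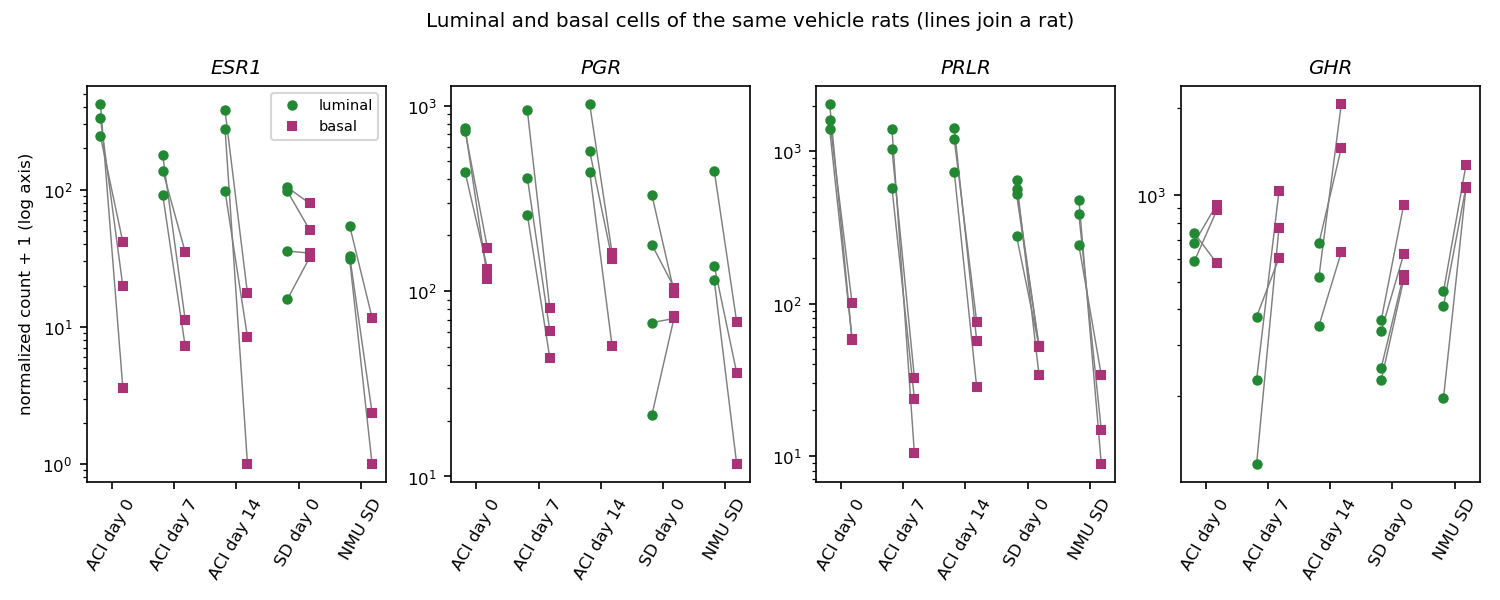
Normalized count + 1 (log axis) of each receptor gene in luminal (circles) and basal (squares) cells of vehicle rats in 5 groups. Lines join the samples of 1 rat. PRLR falls from luminal to basal in every rat, ESR1 and PGR do so in every ACI rat but not in every day 0 SD rat, and GHR is higher in basal cells in all groups but ACI at day 0.

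Some genes that work with these receptors differed between the same cells. They are named by lowest adjusted p within a list, in comparisons where 14.7% to 40.9% of all genes passed. FOXA1, a factor that opens chromatin for ESR1, was lower in basal cells in all 5 groups (-4.45 ± 0.87 in ACI at day 0, -2.59 ± 0.83 in SD), and TFAP2C was higher in 4 (2.18 ± 0.20 in ACI at day 0). OXTR, the oxytocin receptor of contractile myoepithelial cells, was higher in basal cells in all 5 (3.10 ± 0.84 in ACI at day 0, 6.88 ± 0.86 in NMU-injected rats), though its day 7 call was lost without the rat with contradicting labels (2.74, adjusted p = 0.0664).

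Of the prolactin and growth hormone signalling genes at day 0 in ACI, 2 of 10 were higher and 4 lower in basal cells (list median -0.04, that of all genes 0.21, with 20.5% of all genes passing). ELF5, a luminal factor downstream of prolactin and progesterone, fell from luminal to basal by 5.39 on the log2 scale (SE 0.73), CISH, a feedback inhibitor, by 0.93 (SE 0.22), and SOCS1, another inhibitor, was higher in basal cells (1.93 ± 0.41). Of 4 tested progesterone-responsive genes, 3 were lower in basal cells, with WNT4 at -3.39 ± 0.47, and CALCA was higher (3.89 ± 0.89). Of 10 tested estrogen-responsive genes 1 was higher (IGFBP4, 4.45 ± 0.48) and 4 were lower, XBP1 at -2.23 ± 0.21 and CTSD at -0.93 ± 0.22.

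Single cells placed the receptors more finely. Cells were grouped by clustering without the 4 receptor genes and named from marker genes, each cluster taking the name of the marker list on which it scored highest, such as "mature luminal-like" (hormone-sensing markers) or "luminal progenitor-like" (KIT, ELF5 and related genes). The genes that lead a cluster are not always those markers: milk genes such as LALBA and CSN1S1 led both luminal progenitor-like clusters of ACI sorted cells and the largest one of the whole gland, and in SD sorted cells such clusters were also led by CXCL2, by FOS and, beside RSPO1, by CD74. Levels are UMIs of the gene per 10000 UMIs of the class, with the vehicle rats given one by one or as lowest, median and highest. They are descriptions of classes and not tests.

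PRLR was the most widely detected of the 4 in mature luminal-like cells, with 7.96, 10.6 and 10.7 UMIs per 10000 in ACI sorted cells, 6.32, 6.82 and 7.67 in SD sorted cells and 0.652, 1.21 and 1.31 in the SD whole gland. The median rat had a PRLR UMI in 98.8%, 94.99% and 50.8% of these cells. In luminal progenitor-like cells the medians were 3.31 (ACI sorted), 0.407 (SD sorted) and 0.0887 (whole gland), and in basal-like cells 0.00861, 0.00363 and 0.00306. B cell-like cells, given as a background class, had a PRLR UMI in 0.16% of cells at a median of 1923 UMIs per cell, beside 8913 in mature luminal-like cells of the same glands.

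ESR1 and PGR shared that class. ESR1 was 0.647, 0.747 and 0.791 UMIs per 10000 in ACI mature luminal-like cells, 0.355, 0.386 and 0.544 in SD sorted and 0.0997, 0.102 and 0.164 in the whole gland. PGR was 0.446, 0.542 and 0.613 in ACI, 0.31, 0.55 and 1.37 in SD sorted and 0.265, 0.794 and 0.812 in the whole gland. Of luminal progenitor-like cells, ACI cells also carried ESR1 (median 0.218) and PGR (0.133), while the SD sorted medians were 0.0173 and 0.0107. In the whole gland, fibroblast-like cells had an ESR1 level of 0.0969, 0.11 and 0.113, close to that of mature luminal-like cells, and 8.80% of them had an ESR1 UMI in the median rat, beside 0.032% of B cell-like cells.

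PGR in basal-like cells was low, at 0.0326 (ACI sorted), 0.0608 (SD sorted) and 0.0222 (whole gland) UMIs per 10000 at the median. In B cell-like cells, a class present in the whole gland alone, it was 0.00468. A PGR UMI was seen in 1.73% of basal-like and 0.0714% of B cell-like cells there, at median depths of 7133 and 1923 UMIs per cell. In pericyte-like and vascular endothelial-like cells PGR rested on 17 and 16 UMIs in all vehicle rats together (0.464% and 0.173% of cells).

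GHR was spread over basal-like and stromal cells. It was 1.03, 1.08 and 1.19 UMIs per 10000 in ACI basal-like cells, 0.688, 0.795 and 1.10 in SD sorted and 0.159, 0.261 and 0.297 in whole-gland basal-like cells. Fibroblast-like cells of the whole gland stood at 0.535, 0.569 and 0.759, Schwann-like cells at 0.284, 0.304 and 0.418 and vascular endothelial-like cells at 0.144, 0.165 and 0.199. Luminal progenitor-like cells were above mature luminal-like cells in all 3 experiments at the median (0.464 and 0.214 in ACI, 0.342 and 0.0374 in SD sorted, 0.0914 and 0.0211 in the whole gland), the opposite order to the other receptors. B cell-like cells had a GHR UMI in 0.128% of cells.

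Between the basal and luminal sorts of vehicle rats, all 8 single-cell tests passed an adjusted p of 0.1 by edgeR, as did 53.1% of all genes (65.2% in ACI and 41.6% in SD). For ACI the log2 fold changes, basal against luminal, were -6.51 for ESR1, -3.25 for PGR, -9.58 for PRLR and 1.56 for GHR, and for SD they were -4.41, -2.10, -9.97 and 1.89. In single SD cells ESR1 and PGR were thus lower in the basal sort, where the bulk samples of young SD rats at day 0 overlapped and those of NMU-injected SD rats did not. By the study's methods, sorted cells with CD45 reads or few keratin reads were removed. So were cells of either sort found in clusters made up almost wholly of the other. Such filters can widen the difference between the sorts before the test, and bulk samples had none. Their part in the result was not tested.

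**Figure D3:**
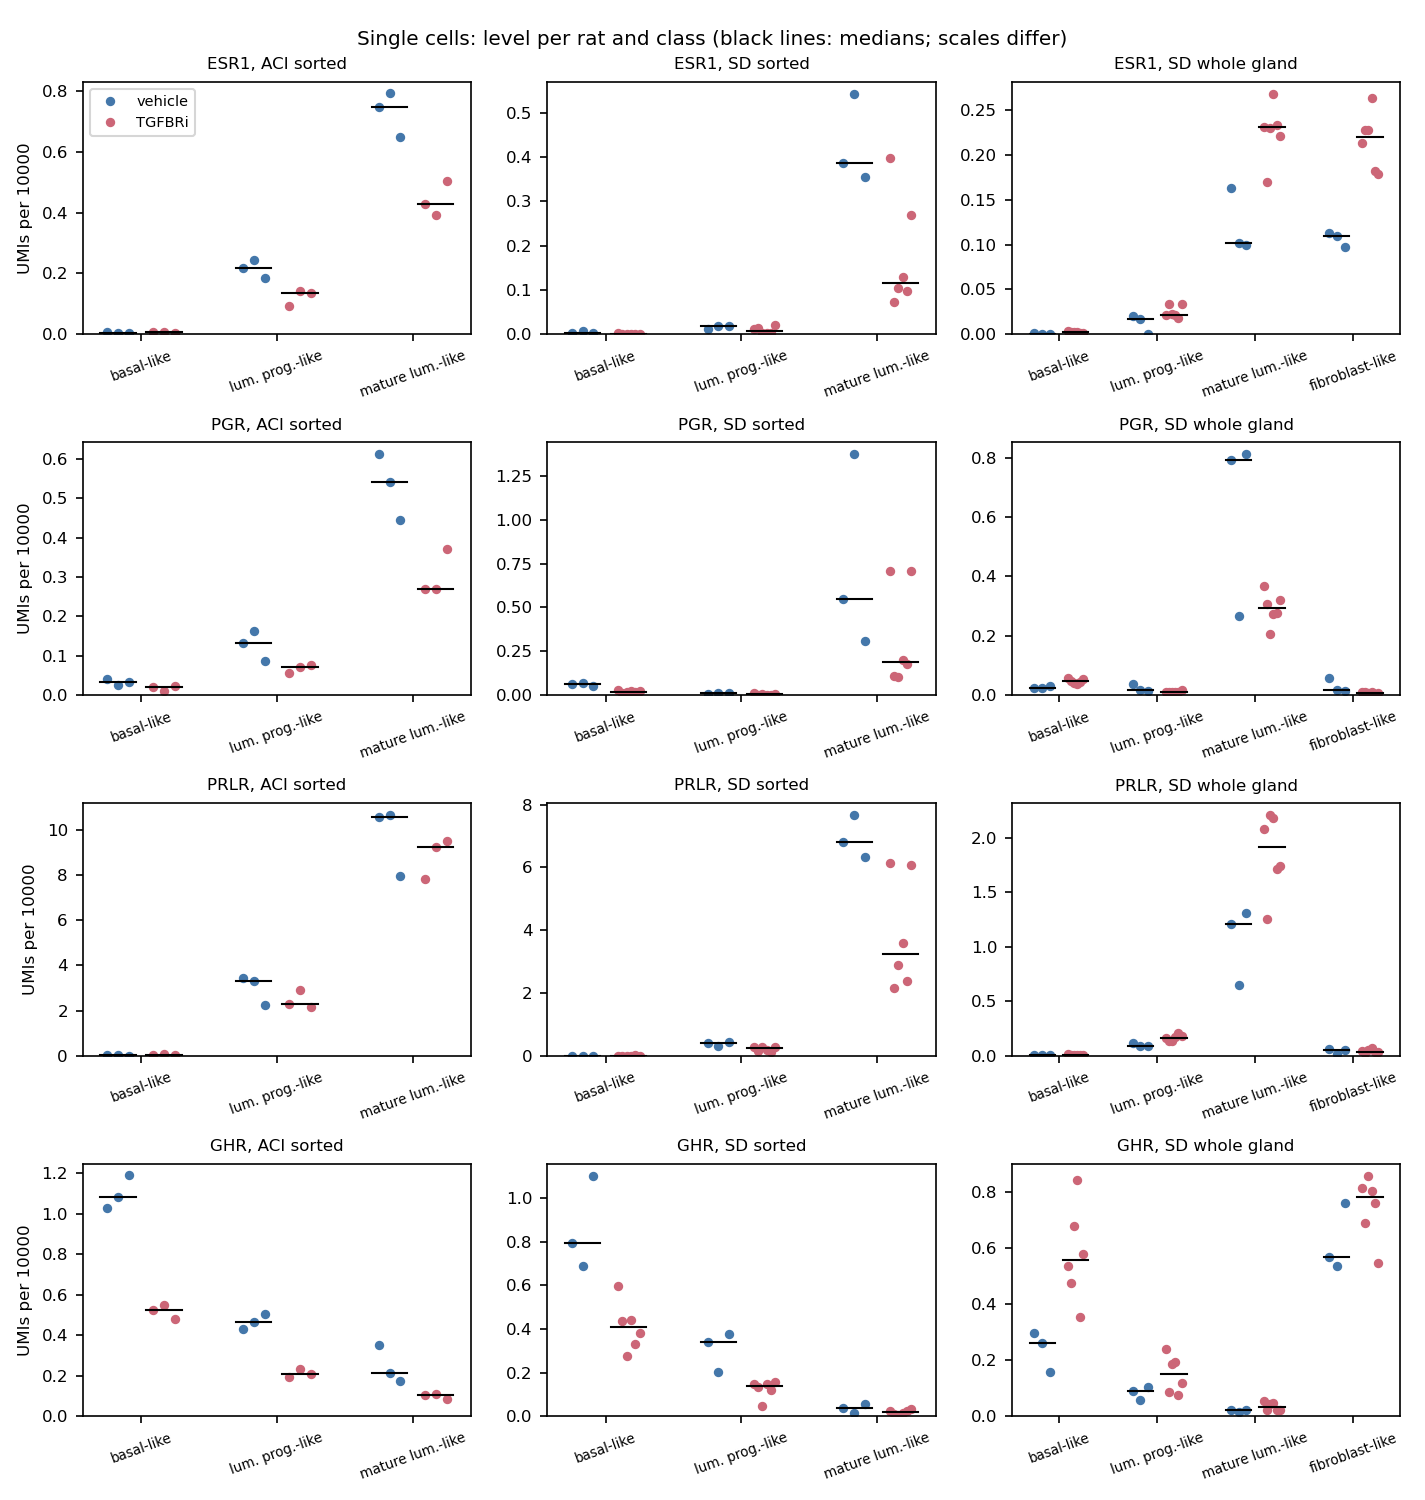
UMIs of each receptor gene per 10000 UMIs by rat, for vehicle (blue) and TGFBRi (red), in the epithelial classes of 3 single-cell experiments and in fibroblast-like cells of the whole gland. Points are rats, black lines are medians and the axes differ between panels. PGR and PRLR of vehicle rats peak in mature luminal-like cells, as does ESR1 in sorted cells, while in the whole gland its median is 0.102 in mature luminal-like and 0.11 in fibroblast-like cells. GHR is highest in basal-like and fibroblast-like cells. Basal-like GHR is lower with TGFBRi in both sorted experiments and higher in the whole gland.

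In bulk cells, few receptor levels moved with TGFBRi. Of 128 tests (4 genes in 32 comparisons of TGFBRi with vehicle), 2 passed an adjusted p of 0.05 by limma, where 0.588% of all genes passed over the same comparisons. Of the 128, 16 had an unadjusted p under 0.05, a share that was not computed for all genes. DESeq2 called 3 of the 128, edgeR 1 and limma fitted on the 2 groups alone none.

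GHR fell in CD45+ cells of young ACI rats at day 0. It was 226.7, 299.8 and 396.8 normalized counts in vehicle rats and 37.5, 58.5 and 81.3 in TGFBRi rats, with no overlap (-2.39 ± 0.52, adjusted p = 0.025, where 2.85% of all genes passed). The fibroblast marker sum moved the same way, from 12522 to 32222 RPM in vehicle to 896 to 7213 RPM in TGFBRi samples of the same sort, and its part in the result was not tested. The call was lost without vehicle rat LD3R (adjusted p = 0.0611) and without TGFBRi rats LD7R (0.0624) or LD10R (0.108) and when only these 2 groups were fitted (0.116).

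PGR fell in basal cells of adult virgin ACI rats. It was 71.7, 110.5, 173.8 and 472.9 normalized counts in vehicle rats and 0, 0, 0 and 61 in TGFBRi rats, with no overlap (-5.84 ± 1.14, adjusted p = 0.0063, where 8.73% of all genes passed). Over all genes the median change was -0.25, and of the 1173 genes that passed 837 were lower. The ESR1 median in these samples was 0.86 RPM in vehicle and 0 in TGFBRi rats. The vehicle rat at 472.9 also had the highest luminal marker sum of its group (15457 RPM, beside 4216, 4425 and 4611 RPM in the other vehicle rats and 3611 to 4539 RPM in TGFBRi rats), and without it the change was -5.32 with an adjusted p of 0.0199. The size depends on the added count of 1, since 3 rats had no read, and by edgeR the change was -3.73 with an adjusted p of 0.105. In the same comparison STAT5A (-1.24 ± 0.30) and STAT5B (-1.82 ± 0.29), the transducers of prolactin signalling, fell, as did VDR (-1.42 ± 0.30), the vitamin D receptor, and SOCS1 rose (1.23 ± 0.26).

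Other receptor values differed without passing by limma over all rats. In young ACI luminal cells at day 7, GHR was 115.1, 226.9 and 376.7 in vehicle and 533.5, 676.6 and 708.7 in TGFBRi rats (1.56 ± 0.36, adjusted p = 0.208 by limma and 0.0124 by DESeq2, and 1.60 by limma without the rat with contradicting labels). Without rat LD5R it passed by limma (1.97, adjusted p = 0.0467). PRLR in luminal cells of TGFBRi rats differed from vehicle by 0.78 ± 0.34 at day 7 and 0.92 ± 0.34 at day 14 (adjusted p = 0.597 and 0.452 by limma). In adult parous luminal cells ESR1 was 109, 138.6, 199.5 and 286.3 in vehicle and 232.4, 423.8, 427 and 464.5 in TGFBRi rats (1.12 ± 0.39, adjusted p = 0.276 by limma), with the groups overlapping. In young ACI basal cells at day 0, ESR1 ran from 0.165 to 2.83 RPM in vehicle and 3.66 to 8.39 RPM in TGFBRi rats. PGR there ran from 7.56 to 10.8 RPM in vehicle and 1.43 to 5.64 RPM in TGFBRi rats. Neither gene overlapped, and the share of all genes that separate in this way was not computed.

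**Figure D4:**
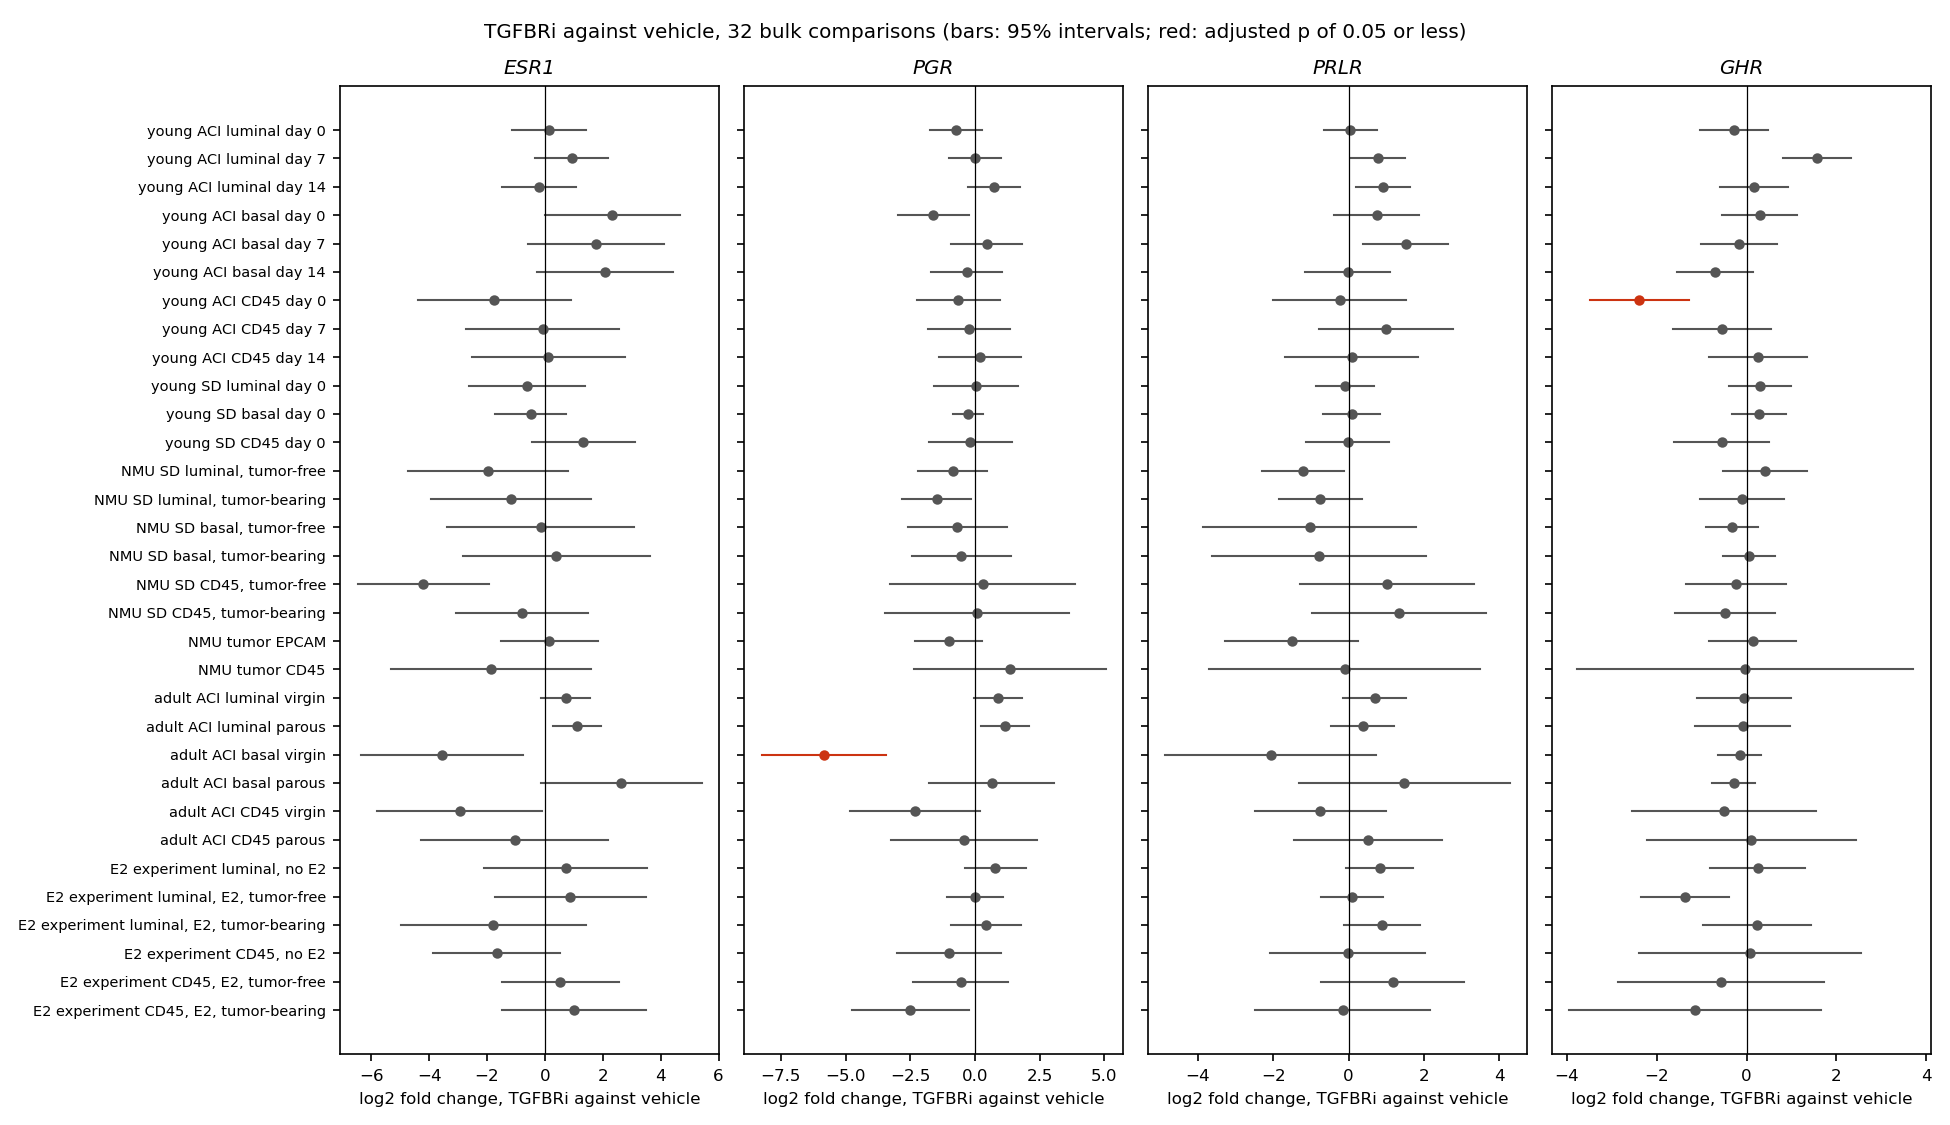
Log2 fold change of TGFBRi against vehicle for each receptor gene in the 32 bulk comparisons. Points are limma estimates, bars are 95% intervals and red marks an adjusted p of 0.05 or less. The red points are PGR in adult virgin basal cells and GHR in CD45+ cells of young ACI rats at day 0, and bars for ESR1 are wide.

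In single cells a larger share of receptor tests passed, and so did a larger share of all genes. The test and the threshold differ from those in bulk. Of 77 tests (4 genes over sorts and classes with enough UMIs), 29 passed an adjusted p of 0.1 by edgeR (37.66%), 20 lower and 9 higher with TGFBRi, beside 24.6% of all genes over all 24 comparisons. Of the 29, 24 had no overlap between vehicle and TGFBRi rats in UMIs per 10000, a share that was not computed for all genes that passed. The tests cover overlapping cells, since a sort contains its classes. By gene, GHR was lower in 9 and higher in 2 of 21 tests, PGR lower in 10 and higher in 1 of 17, PRLR higher in 4 and lower in 0 of 21, and ESR1 lower in 1 and higher in 2 of 18. These counts include the PGR calls in pericyte-like and vascular endothelial-like cells. PGR reached the minimum count there through the vehicle rats alone, so those calls carry no weight. Tests were on TMM-scaled sums, and for the 4 genes the change in UMIs per 10000 stood beside the TMM fold change at a median of -0.22 in ACI sorted, -0.34 in SD sorted and 0.14 in whole-gland cells on the log2 scale. The sign differed between the scales in 6 of the 77 tests and in 0 of the 29 that passed.

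GHR was lower with TGFBRi in every ACI class tested. In basal-like cells it went from 1.03, 1.08 and 1.19 UMIs per 10000 in vehicle to 0.481, 0.523 and 0.551 in TGFBRi rats (log2 fold change -0.86, DESeq2's SE 0.12, edgeR adjusted p = 6.7e-05, where 34.8% of genes passed). In luminal progenitor-like cells it went from 0.433, 0.464 and 0.506 to 0.195, 0.21 and 0.235 (-0.79, SE 0.17, 30.8%), and in mature luminal-like cells from 0.173, 0.214 and 0.354 to 0.0855, 0.107 and 0.109 (-1.11, SE 0.27, 21.8%). The sorts taken whole gave -0.87 (basal, 33% of genes passing) and -0.91 (luminal, 25%). No ACI group overlapped. In bulk day 0 ACI samples GHR did not pass by limma. Its median in basal samples was 57.7 RPM in vehicle and 71.4 in TGFBRi rats. In luminal samples it was 43.5 and 34.5 RPM, and both pairs overlapped.

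In SD sorted cells GHR fell in 2 of the 3 epithelial classes, by less certain margins. Basal-like cells went from 0.688, 0.795 and 1.10 to 0.275, 0.333, 0.383, 0.437, 0.44 and 0.596 (-0.70, SE 0.27, adjusted p = 0.041, with 36.6% of genes passing), and luminal progenitor-like cells from 0.201, 0.342 and 0.378 to 0.0475, 0.12, 0.134, 0.147, 0.147 and 0.157 (-0.93, SE 0.39, adjusted p = 0.091, 25.5%). Mature luminal-like cells did not pass, with 0.0143, 0.0374 and 0.0576 in vehicle and 0.00765 up to 0.0327 in TGFBRi rats (-0.73, SE 0.52, adjusted p = 0.291), and the groups overlapped. The basal sort gave -0.74 (24.7% of genes passing) and the luminal sort -1.29 (31.8%). Each of these 4 calls was lost without vehicle rat SD3 (adjusted p = 0.2415 in basal-like cells, 0.291 in luminal progenitor-like cells, 0.2993 in the basal sort and 0.1316 in the luminal sort). The sort calls were also lost without vehicle rat SD1 (0.1482 and 0.1274) and the basal sort call without TGFBRi rat SD12 (0.1071), and the luminal progenitor-like call was lost without 7 of the 9 rats in turn (0.1018 to 0.291). The classes of SD sorted cells leave out 3 clusters that stayed unnamed, 1 nearest to basal and 2 nearest to luminal progenitor markers. They held 5520 of 30261 cells of TGFBRi rats (1.16% to 51% of a rat's cells) and 17 of 9505 cells of vehicle rats, so a class need not hold the same kinds of cells in both groups, here and for the other receptors. The sorts taken whole keep these cells. In bulk day 0 SD samples GHR did not pass by limma. Its median in basal samples was 52.2 RPM in vehicle and 62.1 in TGFBRi rats. In luminal samples it was 16.8 and 23.4 RPM, and both pairs overlapped.

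In the whole gland of SD rats, basal-like GHR stood the other way, from 0.159, 0.261 and 0.297 in vehicle to 0.352, 0.476, 0.536, 0.579, 0.679 and 0.842 in TGFBRi rats (1.24, SE 0.30, adjusted p = 0.0068, where 44% of genes passed). Pericyte-like cells rose from 0.0616, 0.0815 and 0.088 to 0.131 up to 0.177 (0.82, SE 0.29, adjusted p = 0.021, 24.5%). The pericyte-like call was lost without vehicle rat veh2 (0.1122). Fibroblast-like cells, the class richest in GHR there, went from 0.535, 0.569 and 0.759 to 0.548 up to 0.858 and did not pass (0.04, SE 0.21). Setting sorted beside whole-gland cells was chosen after the values had been seen, and the difference in direction was not tested. The sorted libraries were made with 3′ kits and the whole-gland ones with 5′ kits, and the study's methods give a filter of cells on keratin reads for the sorted data. Kit, sort and filter cannot be told apart from one another here. Median UMIs per basal-like cell were 7133 in vehicle and 6963 in TGFBRi rats of the whole gland and 8389 and 8702 in SD sorted cells.

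PGR fell in basal cells of both sorted experiments. In SD sorted basal-like cells it went from 0.052, 0.0608 and 0.0707 to 0.0129, 0.0145, 0.0169, 0.0204, 0.0244 and 0.0303 (-1.21, SE 0.34, adjusted p = 0.013), and in the basal sort the log2 fold change was -1.38 (adjusted p = 0.026, lost without SD1 at 0.1144 or SD3 at 0.1397). In ACI basal-like cells it went from 0.0261, 0.0326 and 0.0416 to 0.00933, 0.0192 and 0.0217 (-0.79, SE 0.40, adjusted p = 0.075), on 199 UMIs in all, and the call was lost without ACI7 (0.287), ACI12 (0.1332) or ACI15 (0.2645) and by DESeq2 (0.162). In whole-gland basal-like cells PGR stood the other way, from 0.022, 0.0222 and 0.0306 to 0.0353, 0.0411, 0.0444, 0.0471, 0.0539 and 0.0583 (0.97, SE 0.30, adjusted p = 0.0085). In bulk day 0 basal samples PGR did not pass by limma. Its median in ACI rats was 9.13 RPM in vehicle and 3.77 in TGFBRi rats, without overlap. In SD rats it was 7.59 and 6.06 RPM, with overlap.

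In mature luminal-like cells PGR was lower with TGFBRi in ACI sorted cells (0.446, 0.542 and 0.613 to 0.27, 0.27 and 0.371; -0.62, SE 0.20, adjusted p = 0.038) and in the whole gland (0.265, 0.794 and 0.812 to 0.205, 0.272, 0.276, 0.308, 0.32 and 0.368; -1.20, SE 0.32, adjusted p = 0.022, where 29.2% of genes passed). The ACI call was lost without ACI7, ACI8, ACI12 or ACI15 (adjusted p = 0.109 to 0.1402). In SD sorted cells it did not pass (-0.88, SE 0.76, adjusted p = 0.4).

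PGR also fell in whole-gland fibroblast-like (-2.28, 29.2% of genes passing) and luminal progenitor-like cells (-1.30, 28.7%), with vehicle rats at no more than 0.0567 UMIs per 10000. The luminal progenitor-like call was lost without vehicle rat veh1 (-0.64, adjusted p = 0.3818) and at Leiden resolution 0.4, a coarser clustering (-1.01, 0.1285). Pericyte-like cells held 17 PGR UMIs in all vehicle rats and 1 in all TGFBRi rats, and vascular endothelial-like cells (34% of genes passing) held 16 and 3. PGR reached the minimum of 10 counts there through the vehicle rats alone, and DESeq2 gave it no adjusted p, so these 2 calls by edgeR carry no weight here although they are among the 29. The sum of 6 mature luminal markers moved with it in each of these classes: from 3.49 to 1.90 UMIs per 10000 in fibroblast-like, 0.981 to 0.509 in luminal progenitor-like, 3.59 to 1.40 in pericyte-like and 0.886 to 0.464 in vascular endothelial-like cells, and from 0.14 to 0.0821 in B cell-like cells. The part of free RNA from mature luminal cells in these values was not tested.

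ESR1 went in different directions by experiment. In ACI mature luminal-like cells it fell from 0.647, 0.747 and 0.791 to 0.393, 0.429 and 0.504 (-0.52, SE 0.17, adjusted p = 0.028), a call lost without TGFBRi rat ACI15 (0.1073) or vehicle rat ACI8 (0.1275). In bulk day 0 ACI luminal samples the ESR1 median was 21.5 RPM in vehicle and 29.7 in TGFBRi rats. Those groups overlapped, and ESR1 did not pass there by limma. In the whole gland it rose in mature luminal-like cells, from 0.0997, 0.102 and 0.164 to 0.17, 0.222, 0.231, 0.231, 0.233 and 0.269 (0.77, SE 0.23, adjusted p = 0.022), and in fibroblast-like cells, from 0.0969, 0.11 and 0.113 to 0.179, 0.182, 0.214, 0.228, 0.228 and 0.264 (0.81, SE 0.18, adjusted p = 0.004). In SD sorted mature luminal-like cells it was 0.355, 0.386 and 0.544 in vehicle and 0.0722, 0.0982, 0.104, 0.129, 0.269 and 0.398 in TGFBRi rats (-1.01, SE 0.42, adjusted p = 0.12), with the groups overlapping. It passed there by DESeq2 (0.0542), with a minimum of 100 counts (0.0958) and without rat SD9 (0.0706) or SD10 (-1.33, adjusted p = 0.019).

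PRLR did not fall in any test that passed. It rose in the whole gland in mature luminal-like cells, from 0.652, 1.21 and 1.31 to 1.26, 1.71, 1.75, 2.08, 2.18 and 2.21 (0.73, SE 0.24, adjusted p = 0.055), and in luminal progenitor-like cells, from 0.0881, 0.0887 and 0.114 to 0.136 up to 0.205 (0.63, SE 0.22, adjusted p = 0.037). In the first the groups overlapped, and its call was lost without vehicle rat veh2 (log2 fold change 0.47, adjusted p = 0.1269). The second call was lost without veh2 (0.1125) or veh4 (0.1149). In ACI basal-like cells PRLR rose on 116 UMIs in all (1.88, adjusted p = 0.068), and TGFBRi rat ACI15 at 0.056 stood above the others at 0.00958 and 0.0169. Without ACI15 the change was 0.88 (adjusted p = 0.1872), and the call was also lost without ACI7, ACI8 or ACI9 and without the 6% of cells with the highest doublet scores (1.79, 0.1283). In SD sorted mature luminal-like cells 4 TGFBRi rats were at 2.16, 2.39, 2.88 and 3.59 and the other 2 at 6.08 and 6.15, beside 6.32, 6.82 and 7.67 in vehicle rats (-0.56, SE 0.29, adjusted p = 0.16).

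Among genes of the same pathways in basal-like cells, SOCS3, a feedback inhibitor of cytokine receptors, fell with TGFBRi in both sorted experiments (-1.13 in ACI, -1.89 in SD by edgeR), as did the receptors VDR (-0.79 and -0.71) and OXTR (-1.17 and -1.25). Of receptor cofactors, 1 of 10 tested rose and 3 fell in ACI, and 1 of 10 rose and 6 fell in SD sorted basal-like cells (list medians -0.07 and -0.72, all genes -0.04 and 0.03), where 34.8% and 36.6% of all genes passed. In whole-gland basal-like cells OXTR rose (3.20), and 6 of 10 prolactin and growth hormone signalling genes rose and 1 fell (list median 0.65, all genes 0.05, with 44% of all genes passing), with SOCS2 at 1.86 and STAT5B at 1.14.

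Across days and parity few receptor values differed. Of 48 tests of day 7 or 14 against day 0 in young ACI rats, 2 passed, with 3.96% of all genes passing. GHR in vehicle luminal cells was 586.8, 681.4 and 736.4 normalized counts at day 0 and 115.1, 226.9 and 376.7 at day 7 (-1.63 ± 0.36, adjusted p = 0.047 by limma, where 0.685% of genes passed). The fibroblast marker sum was 696 to 1439 RPM at day 0 and 183 to 901 RPM at day 7, and its part in the result was not tested. The call was lost by edgeR (0.0655), when the 2 groups were fitted alone (0.175) and without each of 5 of the 6 rats in turn (LD2L 0.164, LD3L 0.203, LD3R 0.121, LD4R 0.191 and the rat with contradicting labels 0.122). GHR in CD45+ cells of TGFBRi rats was 37.5, 58.5 and 81.3 at day 0 and 192.1, 275.8 and 923.8 at day 14 (2.68 ± 0.52, adjusted p = 0.0065, where 5.94% of genes passed), and the fibroblast marker sum rose from 896 to 7213 RPM at day 0 to 11399 to 88894 RPM at day 14. The part of the marker shift was not tested, and the day 0 rats are those of the TGFBRi call above. The call was lost when the 2 groups were fitted alone (0.0539).

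Of 24 tests of parous against virgin adult ACI rats, 1 passed, with 1.97% of all genes passing. PGR in basal cells of TGFBRi rats was 0, 0, 0 and 61 in virgin and 53.01, 70.9, 80.8 and 122.3 in parous rats, overlapping in 1 rat (4.82 ± 1.14, adjusted p = 0.013, where 12.1% of genes passed). It was lost by edgeR (2.42, adjusted p = 0.246), by DESeq2 (0.163) and when the 2 groups were fitted alone (0.0885), and its virgin rats are those of the TGFBRi call above. Over all genes the median change in this comparison was 0.24, with 1182 higher and 449 lower among those that passed. In vehicle luminal cells of virgin and parous rats the 4 receptors overlapped. PRLR there was 650.6, 1516, 2059 and 2225 in virgin and 1293, 1307, 2295 and 2403 in parous rats (0.26, interval -0.58 to 1.10).

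Whether the effect of TGFBRi itself differed between days, parity groups or E2 groups was tested for each gene in 44 tests. By limma 0 passed, where 0.108% of all genes passed, while 8 had an unadjusted p under 0.05, again with no share computed for all genes. DESeq2 called 1, GHR in CD45+ cells at day 14 less day 0 (2.65 ± 0.74 by limma, adjusted p = 0.112), and edgeR 0. The lowest adjusted p by limma was that of PGR in basal cells, where the TGFBRi effect in parous less that in virgin rats was 6.48 ± 1.62 (adjusted p = 0.0618).

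In luminal cells of the E2 experiment, PRLR was lower with E2 in both comparisons made, that of vehicle rats and that of tumor-free TGFBRi rats with those without E2. Of 16 tests of E2 against no E2, 2 passed by limma, where 2.98% of all genes passed, and both were PRLR in luminal cells. In vehicle rats it was 1209, 1298, 1610 and 2755 normalized counts without E2 and 379, 445.1, 537.8 and 546.6 with E2 (-1.78 ± 0.39, adjusted p = 0.025, where 1.48% of genes passed). In TGFBRi rats it was 2163, 2972 and 3749 without E2 and 383.6, 389.7, 575 and 749.1 in tumor-free rats with E2 (-2.52 ± 0.42, adjusted p = 0.0024, where 4.58% passed). Neither pair of groups overlapped. A further 2 TGFBRi rats with E2 bore tumors and were not set against rats without E2. They stood at 414.1 and 1843, the second within the range of vehicle rats without E2, and against E2-implanted vehicle rats their difference did not pass (0.89, interval -0.12 to 1.89). The vehicle call was lost without each of 5 of the 8 rats in turn (A4-1, A4-3, A4-27, A4-37 and A4-38, adjusted p = 0.0518 to 0.106). One TGFBRi rat with E2 was deposited in 4 parts, which were averaged and counted once.

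Markers of luminal subtypes moved with PRLR. The sum of 6 mature luminal markers (FOXA1, CITED1, PROM1, AREG, TBX3 and WNT4) was 288 to 2108 RPM in vehicle rats without E2 and 71.4 to 183 with E2, and 1196 to 1461 and 176 to 361 RPM in TGFBRi rats, those with E2 being tumor-free. In the tumor-bearing TGFBRi rats it was 204.2 RPM in the rat with PRLR at 414.1 and 994.2 RPM in the one at 1843. The sum of 6 luminal progenitor markers was 6317 to 31034 RPM without and 26450 to 31286 with E2 in vehicle rats, and 7841 to 9546 and 20694 to 28897 RPM in TGFBRi rats, with LTF at 0. The part of these shifts in the PRLR result was not tested, and fewer mature luminal cells and less PRLR per cell cannot be told apart here.

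The other receptors did not pass in luminal cells. ESR1 was 81.7, 199.6, 263.4 and 582.9 normalized counts without and 9.86, 50.1, 124.6 and 146.1 with E2 in vehicle rats (-1.99, interval -4.60 to 0.62), and 128.8, 539 and 729.3 without and 78.6, 93.5, 114.1 and 131.6 with E2 in tumor-free TGFBRi rats (-1.84, interval -4.66 to 0.97). PGR was 582.4, 682, 1810 and 4051 without and 501.4, 521.3, 987.3 and 1307 with E2 (-0.78, interval -1.87 to 0.32), and in TGFBRi rats 1450, 2332 and 3389 without and 488.1, 611.8, 953 and 1200 with E2, with no overlap but an adjusted p of 0.13 by limma. GHR was 142.6, 305.5, 341.3 and 391.2 without and 344.5, 361.7, 503.5 and 535.3 with E2 in vehicle rats (0.63, interval -0.35 to 1.61). In TGFBRi rats it was 181.3, 412.8 and 472.9 without and 65.9, 185.6, 198.9 and 297 with E2 in tumor-free rats (-0.996, interval -2.05 to 0.06), with the groups overlapping.

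Few genes of the hormone pathway lists passed beside them, where 1.48% of all genes passed in vehicle and 4.58% in TGFBRi rats. With E2, 1 of 10 tested estrogen-responsive genes fell in vehicle and 2 of 10 in TGFBRi rats, 1 of 4 progesterone-responsive genes fell in both, with 1 more higher in TGFBRi rats, and 2 and 1 of 11 cofactors fell. Of 10 prolactin and growth hormone signalling genes 1 rose and 1 fell, both in TGFBRi rats, and ELF5 is on this list and the progesterone list. STC2, an estrogen-responsive gene, fell by 5.63 on the log2 scale (SE 1.12) with E2 in vehicle and by 7.43 (SE 1.21) in TGFBRi rats. WNT4, induced by progesterone, fell as well (-2.78 ± 0.53 and -2.46 ± 0.58), as did GATA3, a luminal cofactor of ESR1 (-1.40 ± 0.33 and -1.53 ± 0.35). FOXA1 fell in vehicle rats (-2.84 ± 0.60), and ELF5 rose (2.65 ± 0.48) and SOCS1 fell (-1.07 ± 0.27) in TGFBRi rats. FOXA1 and WNT4 are also among the mature luminal markers and ELF5 among the luminal progenitor markers above.

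In CD45+ cells of the E2 experiment the receptors were low. In vehicle rats PRLR was 18.3, 45.01, 51.4 and 86.9 normalized counts without and 0, 1.11, 5.89 and 6.13 with E2, and PGR 35.7, 44.2, 54.7 and 82.4 without and 0.982, 4.91, 7.80 and 8.94 with E2. Neither overlapped, and neither passed by limma over all groups (-3.82 ± 0.90, adjusted p = 0.082, and -3.22 ± 0.88, adjusted p = 0.13), while both passed by DESeq2 (0.005 and 0.0429) and by limma fitted on these 2 groups alone (0.0499 and 0.0426). PGR also passed with 8 in place of 1 as the added count (0.0291). In TGFBRi rats PRLR was lower with E2 by DESeq2 (-2.65, adjusted p = 0.0434) and did not pass by limma (-2.62, adjusted p = 0.12).

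**Figure D5:**
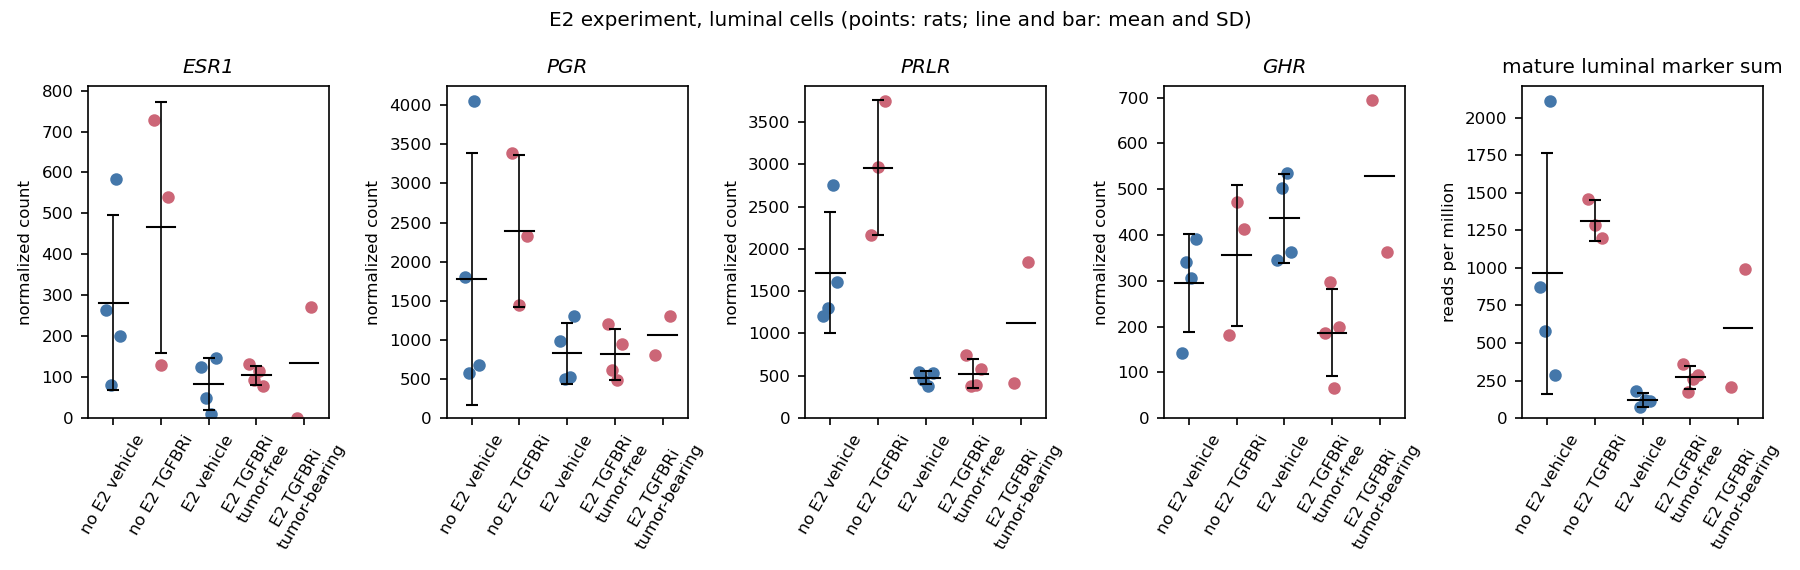
Luminal cells of the E2 experiment by group: normalized counts of the receptor genes and, in the last panel, the sum of 6 mature luminal markers in RPM. Points are rats, the line and bar are mean and SD. PRLR sits between 379 and 749.1 in E2-implanted vehicle and tumor-free TGFBRi rats and at 1209 or above without E2, and the marker sum of those E2 groups lies lower as well. Of the 2 tumor-bearing TGFBRi rats with E2, one has PRLR at 414.1 and the other at 1843.

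In NMU-induced tumors, EPCAM+ cells of vehicle rats had ESR1 levels of 2.03, 2.03 and 11.5 RPM, PGR levels of 6.32, 10.3 and 33.5 and PRLR levels of 13.5, 64.96 and 178.2. GHR was steadier, at 47.8, 70.02 and 74.9 RPM. TGFBRi tumors overlapped these ranges for all 4 genes (PRLR 7.43, 26.3 and 30.9 RPM). The fibroblast marker sum of the vehicle EPCAM+ samples was 9744 to 78422 RPM, beside a luminal marker sum of 4801 to 14715 RPM, so these samples carried stromal transcripts.

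The genes most like each receptor were taken as those with the highest Pearson correlation of group means of log2(RPM + 1) over the 59 bulk groups and 14932 genes, as a description only, since the groups share tables, fractions and rats. For ESR1 these were FOXA1 (0.909), PRLR (0.899), ERBB4 (0.898), BCHE (0.893) and BMPR1B (0.890), for PRLR they were FOXA1 (0.966), MFSD6L (0.945) and CMTM8 (0.942), and for PGR BAIAP2L1 (0.932), CGNL1 (0.917) and MACC1 (0.914). For GHR they were LTBP3 (0.962), TSPAN9 (0.944), TPBG (0.942) and COL16A1 (0.936). ESR1 and PGR had a correlation of 0.846 with each other, while GHR stood at 0.267 with ESR1, 0.325 with PGR and 0.198 with PRLR. Over the 20 luminal groups alone PRLR was the gene most like ESR1 (0.968), and PGR was most like PGRMC1 (0.924), a membrane progesterone-binding protein.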

How the data were processed

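The bulk signal values the authors deposited are read counts divided by DESeq2 size factors (STAR 2.5.1b, HTSeq and DESeq2 1.30.1 on rn6, per the submitters' processing notes). Whole reads were recovered from them (100% of 2526805 values above 0, tolerance 0.001), though in 7 files, where 1 read is worth 0.989 to 1.005, such steps are hard to tell from rounding. In 85 files rows with no gene held 23.1% to 42.5% of reads and were left out. The single-cell files the authors deposited hold UMI counts (Cell Ranger 4.0.0 for sorted cells and 7.0.0 for whole glands). Whether samples are separate animals follows the rat names in the labels.

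The main bulk test was limma 3.58.1 with trend and robust fitting on log2(normalized count + 1), fitted over all groups of a fraction, for genes whose normalized counts summed to 10 or more, with Benjamini-Hochberg adjustment over all genes and a threshold of 0.05. Luminal and basal samples that the authors scaled together were fitted together for their comparison. edgeR 4.0.16 and DESeq2 1.42.0 on recovered reads, another pseudocount, the compared groups alone, a rat block and leaving out each rat were alternatives. Experiments were set side by side in RPM with no test. Single cells were clustered in scanpy 1.11.5 (Leiden 0.8, alternative 0.4, 2000 variable genes without the 4 receptors, 30 components, 20 neighbours), named from markers, and summed per rat and class (10 cells or more). The sums were tested by edgeR's quasi-likelihood test with TMM, with 10 counts or more and an adjusted p of 0.1, and SEs given are DESeq2's. Doublets were kept, and leaving out the 6% highest Scrublet scores was an alternative. In the SD sorted cells 3 clusters of 3408, 1300 and 829 cells stayed unnamed and out of the classes. Shares of cells were also computed after thinning each cell to 2000 UMIs.

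The limma test was also run on simulated bulk counts and the edgeR test on simulated single-cell sums, with only the compared groups fitted. DESeq2 was not run on simulated data. Genes named beside the receptors are at most the 3 of a hormone pathway list with the lowest adjusted p among those past the threshold, in comparisons where a receptor passed, and the 5 genes with the highest correlation to a receptor over group means. One result of the pathway lists is not reported here, for a reason that does not rest on its value. The members and lists were chosen with earlier results of these data known. Samples of the same rat number in treated and vehicle whole glands share only a number. Basal and luminal cells of the same rat are paired by design, and over 16 such pairs the correlation of deviations from the group means was 0.052 to 0.885, above 0.1 in 13.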

Additional observations from a re-analysis of the deposited data

Results flagged for a closer look

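Dixon's criterion flags a rat far from the others in about 1 of 20 groups by chance if values are normally distributed. Values here were often low or 0, so this rate need not hold. Where all other rats stood at 0, any read is flagged. Of 116 groups of 4 to 10 rats tested, 11 held a flagged rat. For ESR1 these were 0.1995 RPM in CD45+ cells of an E2 vehicle rat (the others were at 0), 1.203 RPM in basal cells of an adult virgin TGFBRi rat (the others at 0) and 4.339 RPM in basal cells of adult virgin vehicle rat C_N1N (the others 0.5295 to 1.072). For GHR they were 33.19 RPM in CD45+ cells of the same rat C_N1N (2.112 to 5.451 in the others), 4.79 RPM in CD45+ cells of an SD vehicle rat (11.05 to 12.1) and 0.04749 UMIs per 10000 in luminal progenitor-like cells of SD sorted TGFBRi rat SD12 (0.1205 to 0.1568). For PGR they were 2.47 RPM in basal cells of an adult virgin TGFBRi rat (0 in the others) and 6.78 RPM in CD45+ cells of an SD TGFBRi rat (1.755 to 2.284). For PRLR they were 114.5 RPM in luminal cells of vehicle rat A4-38 without E2 (49.15 to 59.07), 13.57 RPM in CD45+ cells of an adult parous TGFBRi rat (2.522 to 3.022) and 2.969 RPM in basal cells of an SD vehicle rat (4.465 to 4.772).

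In 6 pairs of TGFBRi effects every TGFBRi rat stood above every vehicle rat in one experiment and below every vehicle rat in the other. All 6 were pairs of single-cell experiments within a gene and class, and the differences were not tested. They made up 5.77% of all pairs of effects compared, a set not limited to single-cell pairs. The share among single-cell pairs alone was not computed. In basal-like cells the log2 fold change of PGR was -1.205 in SD sorted and -0.7946 in ACI sorted cells but 0.9661 in whole glands, and that of GHR was -0.7001 and -0.856 but 1.241. In luminal progenitor-like cells PRLR stood at -0.4834 in SD sorted cells, where it did not pass (adjusted p = 0.157 by edgeR), and 0.6312 in whole glands, and in mature luminal-like cells ESR1 stood at -0.5218 in ACI sorted cells and 0.7686 in whole glands. Sorting, the library kit (3′ for sorted cells, 5′ for whole glands), a filter on keratin reads that the study's methods give for sorted cells and, against ACI, the strain differ between these experiments and cannot be told apart.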

How the results depend on the processing

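No receptor result that passed by limma, edgeR or DESeq2 reversed under any alternative run. The sign was not checked in this way for the other receptor tests. Of the bulk calls, TGFBRi against vehicle gave 2 by limma, 1 by edgeR and 0 with the compared groups alone. E2 gave 2, 5 by DESeq2 and 4 with the compared groups alone, and the differences of TGFBRi effects 0 and 1 by DESeq2. Parity gave 1, and 0 by edgeR, by DESeq2 and with the compared groups alone, and days gave 2, 1 by edgeR, 5 by DESeq2, 0 with the compared groups alone and 1 without the rat with contradicting labels. Leaving out each rat in turn gave 1 to 2 calls for E2, 1 to 3 for TGFBRi, 16 to 17 for basal against luminal, 1 to 2 for days, 0 to 1 for the differences, 1 to 2 for parity, 23 to 32 for TGFBRi in single cells and 8 to 8 for the sorts. With a replicate block the counts were 2 for TGFBRi in bulk, 16 for basal against luminal, 8 for the sorts and 24 for TGFBRi in single cells. Whole-gland numbers did not pair rats (above 0.1 in 9 of 42 pairs), nor did adult rat codes (6 of 21). Thinning to 2000 UMIs lowered the share of cells with a UMI: in ACI mature luminal-like cells ESR1 from 52.2% to 14.1%, PGR 42.5% to 9.45% and PRLR 98.7% to 79.4%, in SD sorted ones 34.04% to 8.17%, 44.02% to 15.6% and 94.2% to 71.9%, and in whole-gland ones 12.9% to 2.75%, 37.9% to 12.2% and 51.6% to 20.2%. For GHR the share went from 46.2% to 19.9% in ACI and 39.6% to 15.3% in SD sorted basal-like cells, and from 34.1% to 11.5% in fibroblast-like cells. The cause of these changes other than thinning was not tested.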
